A study of Mus musculus with 24 samples.

Results

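The kidney response of male mice to water deprivation was measured by comparing 7 males from which water had been withheld with 6 males that drank freely, 13 of the 24 mice of the study. All 24 were C57BL/6J mice, an inbred laboratory strain, aged 10 weeks, and 1 library of polyadenylated kidney RNA was sequenced from each mouse. The deprived mice went 9 to 11 h without water, and kidneys were taken within 1 h of midnight, 6 h into the time when mice are active. The remaining mice were 6 watered and 5 deprived females. They entered the estimate of the spread of each gene and served as the comparison where the sexes are set side by side. The labels name no transgene and no drug. Each library comes from whole kidney tissue, so that fewer cells of a type and less RNA per cell cannot be told apart. Values are the authors' size-factor normalized read counts, and changes are differences of log2(value + 1), with their standard error (SE), from limma.

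When water runs short, the pituitary hormone vasopressin acts on principal cells of the collecting duct, the last segment of the nephron. Through its receptor and cyclic AMP it moves the water channel AQP2 to the urine-facing membrane and raises its synthesis, and water leaves the cell through AQP3 and AQP4 on the blood side. Cells of the inner kidney answer the rising salt and urea around them by taking up or making organic osmolytes, under the tonicity factor NFAT5. Corticosteroids, which rise in stress, and the circadian clock act on many of the same tubule genes.

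Water deprivation changed 40 of 17592 tested genes in males at a limma adjusted p below 0.05, a background of 0.227% of genes. Of these, 25 rose (0.142%) and 15 fell (0.0853%), and the size of the log2 change had a median of 0.672. The log2 change over all tested genes had a median of 0.00, with 49.2% of genes above 0. Of the 40 genes, 22 had values that did not overlap between the 7 deprived and the 6 watered males, 15 of them higher and 7 lower. Over all tested genes, 0.267% were higher and 0.261% lower without overlap.

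**Figure D1:**
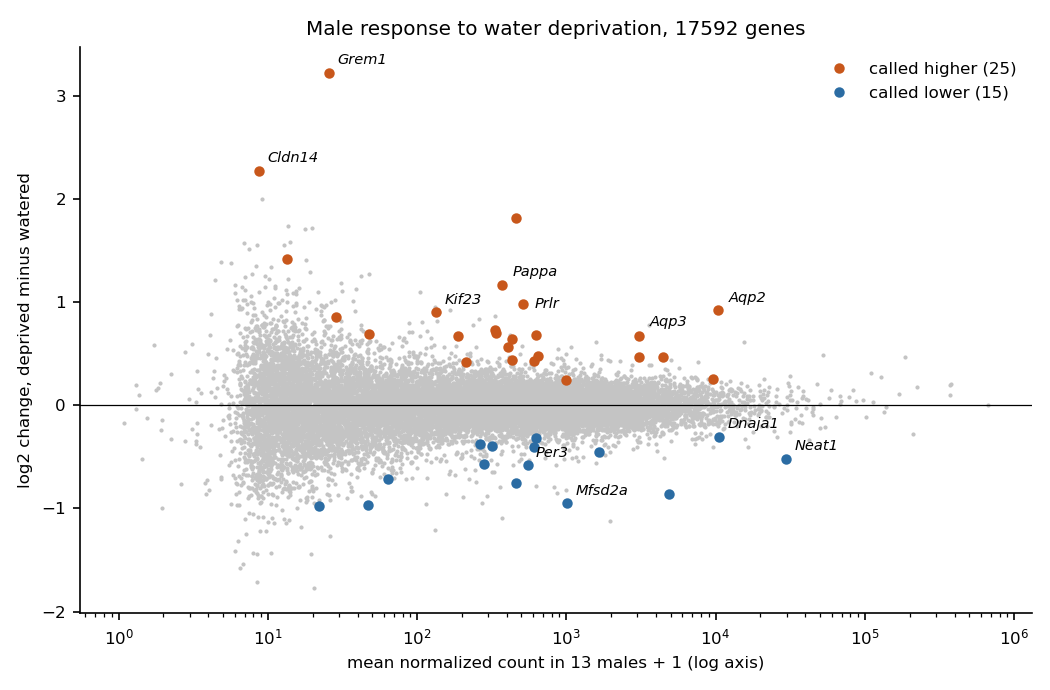
Log2 change of each of 17592 tested genes in deprived against watered males, on the vertical axis, against its mean normalized count in the 13 males on a log axis. The 25 genes called higher are orange and the 15 called lower blue; Grem1 and Cldn14 had the largest rises, at low counts, and Aqp2 and Neat1 changed at high counts.

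Libraries of males held 14411843 to 25348398 reads. In deprived males 6 and 7 the unnamed gene ENSMUSG00000119584 took 1.287% and 2.858% of reads, against 0.336% to 0.85% in the other males. The 10 most abundant genes took 16.51% and 16.86% of reads in these 2 mice, against 12.04% to 13.05%. Mitochondrially encoded genes took 11.41% of reads in deprived male 6, against 8.35% to 9.66% in the other males. Deprived male 7 also had the highest summed level of 14 proximal tubule markers, 1139310 against at most 842421 in watered males. Kap alone was 697480 of this sum, against 301850 to 347670 in watered males, and Kap was at 531890 in deprived male 6. Lrp2, Cubn, Slc5a2 and Slc5a12 of that list were below all watered males in both deprived males 6 and 7. Lrp2 was at 33726 and 35394 in these mice, against 52692 to 62624. Slc13a3 and Slc27a2 stood slightly above all watered males in deprived male 7. The same mouse had the lowest summed levels of the markers of thick ascending limb, distal convoluted tubule, intercalated cells and podocytes. Defining markers of the kidney's segments were present in each library, and the summed levels of the marker lists, other than the principal cell list, overlapped between the groups. The fat cell genes Adipoq, Retn, Lep and Ucp1 were at 0 in some males, and 1 of 8 adrenal markers was in the table. Without these 2 males and 2 females over 1%, 142 genes were called, 36 of the 40 among them, and the exceptions among the genes named here are Mfsd2a, Btc and Nfil3. The part of tissue composition in the results was not tested.

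The water channel genes Aqp2 and Aqp3 stood above all watered males in each deprived male. Aqp2, the channel that vasopressin places in the urine-facing membrane (chromosome 15, 99579055 to 99584547, GRCm38), had a lowest, median and highest level of 6028, 6986 and 7937 in watered males and of 11070, 12324 and 17446 in deprived males. Aqp3, the channel of the blood-facing membrane (chromosome 4, 41092722 to 41098183), had 2122, 2359 and 2469 in watered and 3441, 3562 and 4173 in deprived males. Neither gene overlapped between the groups, and the highest Aqp2 level was that of deprived male 7. The log2 change of Aqp2 was 0.92 ± 0.11 (SE, n = 6 and 7, limma adjusted p = 5.2e-05), or 1.90-fold in the means. That of Aqp3 was 0.67 ± 0.07 (limma adjusted p = 2e-06), or 1.59-fold. Without the 4 libraries named above they were 0.81 and 0.61.

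Of 13 tested genes of collecting duct transport, 2 rose, Aqp2 and Aqp3, and 0 fell, with a list median of -0.08 against 0.00 over all genes. Without the 4 libraries 3 rose, the third being Adcy6, an adenylyl cyclase that makes cyclic AMP. The urea transporter gene Slc14a2 had a log2 change of 0.08 ± 0.10, the channel gene Aqp4 -0.12 ± 0.14, and the sodium channel subunit gene Scnn1b -0.15 ± 0.06 (limma adjusted p = 0.72, 0.71 and 0.31). The 10 principal cell markers summed to 22689 to 24963 in watered and 28085 to 34304 in deprived males. With Aqp2 and Aqp3 taken out, the other markers summed to 13136 to 15366 and to 11781 to 14242, and the groups overlapped. The vasopressin receptor gene Avpr2 lay below the limit on low values and was not tested in the main fit. It had 35 reads over the 6 watered males and 22 over the 7 deprived males, too few to judge a difference.

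The promoters of these channel genes and of called genes of the clock and of sterol control were read from RefSeq (GRCm38.p6, 250 bases before to 50 bases after the start) to show what the changed genes carry there. In Aqp2 capitals mark a cyclic AMP response element half-site, read as CGTCA on this strand from position -211; in Aqp3 a TATA box from position -29; in Per3 both D-boxes, elements read by clock output factors; and in Insig1 an E-box, the element read by the clock activators, from position -101. Each is given 5′ to 3′ on the strand of the gene.
Aqp2, chr15:99578806-99579105, plus strand: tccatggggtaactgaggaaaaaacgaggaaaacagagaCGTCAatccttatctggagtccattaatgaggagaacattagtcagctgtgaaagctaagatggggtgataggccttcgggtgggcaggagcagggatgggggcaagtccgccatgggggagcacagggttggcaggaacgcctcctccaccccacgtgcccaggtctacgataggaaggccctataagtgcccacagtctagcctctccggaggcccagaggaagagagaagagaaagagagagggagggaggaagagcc
Aqp3, chr4:41098134-41098433, minus strand: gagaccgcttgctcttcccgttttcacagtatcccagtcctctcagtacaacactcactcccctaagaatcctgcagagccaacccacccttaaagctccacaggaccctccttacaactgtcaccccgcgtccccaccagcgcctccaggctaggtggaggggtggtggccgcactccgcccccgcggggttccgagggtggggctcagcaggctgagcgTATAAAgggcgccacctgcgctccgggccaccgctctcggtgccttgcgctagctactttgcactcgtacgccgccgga
Per3, chr4:151044616-151044915, minus strand: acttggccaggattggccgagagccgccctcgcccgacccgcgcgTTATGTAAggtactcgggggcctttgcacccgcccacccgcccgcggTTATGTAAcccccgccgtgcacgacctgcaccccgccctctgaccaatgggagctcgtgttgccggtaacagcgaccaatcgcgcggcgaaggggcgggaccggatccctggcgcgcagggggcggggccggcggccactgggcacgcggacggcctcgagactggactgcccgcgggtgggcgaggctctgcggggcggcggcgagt
Insig1, chr5:28071162-28071461, plus strand: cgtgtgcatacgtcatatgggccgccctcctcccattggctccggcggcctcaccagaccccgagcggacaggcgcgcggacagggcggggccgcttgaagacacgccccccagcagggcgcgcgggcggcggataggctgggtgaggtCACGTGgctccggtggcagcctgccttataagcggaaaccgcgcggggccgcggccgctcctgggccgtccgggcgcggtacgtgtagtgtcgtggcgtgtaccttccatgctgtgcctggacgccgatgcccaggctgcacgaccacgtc
Promoters were matched for 24 of the 40 called genes and for 12339 genes of the table, and motifs were searched on both strands. A gene was counted if any of its listed starts held the motif, 5 of the 24 having several starts, and the shares of all are of genes counted in the same way. The half-site TGACG was in 11 of the 24 and in 32.126% of all, and the full element TGACGTCA, which contains it, in 0 of 24 and 3.25%. The E-box CACGTG was in 4 of 24, those of Aqp2, Insig1, St6galnac3 and Wdr86, and in 10.836% of all. The D-box TTANGTAA was in 2 of 24, Per3 and Prlr, and in 1.986% of all, and TATAAA in 3 of 24 and 9.571%. The STAT element TTCNNNGAA was in 2 of 24, Cldn14 and Prlr, and in 8.469% of all. The palindromic corticosteroid receptor element and the sterol element TCACNCCAC were in 0 of 24, against 0.462% and 1.524% of all. These are matches of letters in a short window and show no binding.

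Grem1 encodes gremlin, a secreted antagonist of bone morphogenetic proteins (BMPs), and lies on chromosome 2 at 113746164 to 113758646. Its lowest, median and highest levels were 1.00, 3.29 and 11.1 in watered and 20.6, 43.9 and 64.5 in deprived males, without overlap. These rest on 25 reads over the 6 watered and 258 over the 7 deprived libraries, and the log2 change was 3.22 ± 0.38 (limma adjusted p = 3.6e-05). In the list of BMP ligands, antagonists and targets, 2 of 18 tested genes rose, Grem1 among them, and 0 fell, at a median of 0.00. The BMP target genes Id1 and Id4 had -0.04 ± 0.18 and -0.14 ± 0.10, and the ligand gene Bmp7 -0.12 ± 0.06 (limma adjusted p = 0.93, 0.53 and 0.41). Id4 was at 584 to 681 in deprived males 1 to 5, below the 689 to 825 of watered males, and at 788 and 907 in deprived males 6 and 7. Without the 4 libraries it was called lower, as 1 of 18.

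Pappa encodes pappalysin, a protease that frees insulin-like growth factors from their binding proteins. It had 174, 228 and 252 as lowest, median and highest in watered and 301, 545 and 682 in deprived males. The groups did not overlap, and the 2 lowest deprived values, 338 and 301, were those of deprived males 6 and 7. The log2 change was 1.17 ± 0.19 (limma adjusted p = 0.0023), and 1.41 without the 4 libraries. Of 17 tested genes of the insulin-like growth factor axis Pappa alone rose and 0 fell, the binding protein gene Igfbp3 having 0.13 ± 0.07 and the hormone gene Stc1 0.81 ± 0.24 (limma adjusted p = 0.44 and 0.16). Btc, the gene of betacellulin, a ligand of the epidermal growth factor receptor, rose by 0.67 ± 0.14 with overlapping values (limma adjusted p = 0.039), and 12 of 24 fits without 1 library kept this call.

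**Figure D2:**
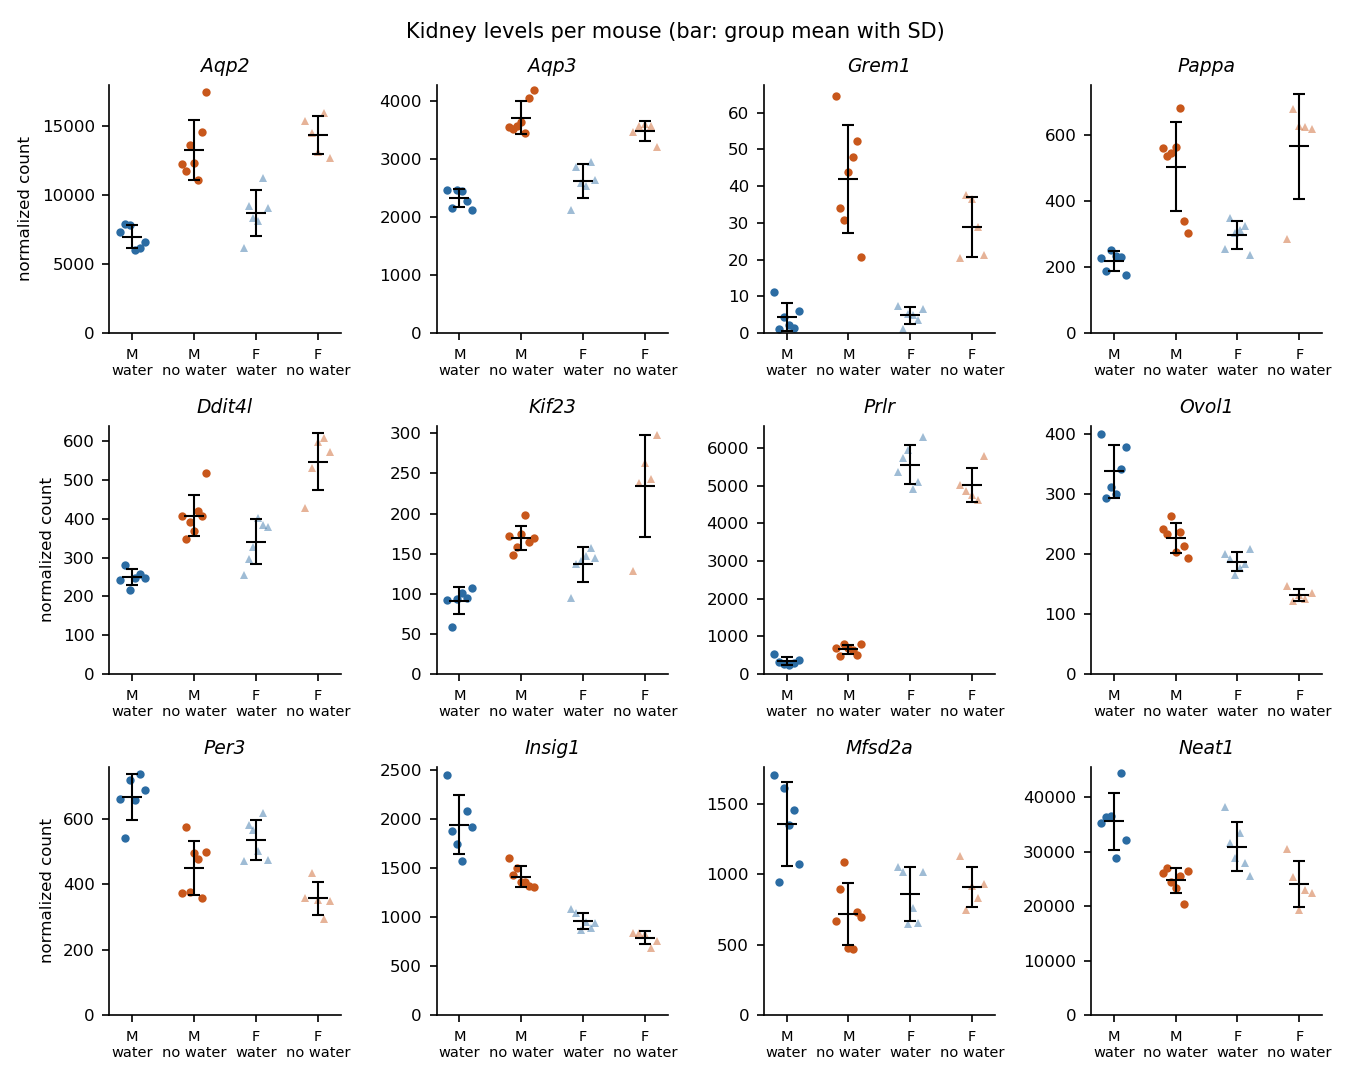
Normalized count of 12 genes in each mouse, for watered (blue) and deprived (orange) males (circles) and females (triangles), with the mean and SD of each group. Aqp2, Aqp3, Grem1, Pappa, Ddit4l and Kif23 separate the male groups upwards and Ovol1 and Neat1 downwards, whereas Prlr lies at 4626 to 6296 in females and at most at 803 in males.

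Prlr, the prolactin receptor gene (chromosome 15, 10177238 to 10349180), is carried on a different level in the sexes. In watered males its lowest, median and highest levels were 238, 313 and 531, and in deprived males 485, 678 and 803, so that the groups overlapped at their edges. The log2 change was 0.98 ± 0.14 (limma adjusted p = 0.001). Females had 4923 to 6296 with and 4626 to 5800 without water, a change of -0.15, and the difference of the responses had an adjusted p of 0.0774 in limma. That difference was called with DESeq2 (1.11, adjusted p = 0.00096) and without watered male 1 (1.27, limma adjusted p = 0.0023). Of 12 tested genes of the prolactin and growth hormone receptor pathway Prlr alone rose and 0 fell. Its targets Cish and Socs2, which damp this signal, had 0.11 ± 0.11 and -0.22 ± 0.28 (limma adjusted p = 0.67 and 0.73). In the list of 17 androgen-dependent kidney genes, which holds Prlr as well, it was again the only one called, or 2 without the 4 libraries.

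Among genes that restrain growth, Ddit4l, an inhibitor of mTOR signalling, had 216, 248 and 280 in watered and 349, 407 and 518 in deprived males, without overlap. Its log2 change was 0.71 ± 0.10 (limma adjusted p = 0.0011). Fam129a, also called niban and induced by cellular stress, rose by 0.69 ± 0.15 (limma adjusted p = 0.045), and 6 of 24 fits without 1 library kept the call. Its level was 476 in deprived male 7, within the watered range of 415 to 568, against 602 to 978 in the other deprived males, and the change was 0.88 without the 4 libraries (limma adjusted p = 3.15e-08). These 2 were the called members of the 12 mTOR restraint and growth arrest genes. Gadd45a and Cdkn1a, which act in growth arrest, had -0.80 ± 0.20 and 0.78 ± 0.21 (limma adjusted p = 0.089 and 0.13), and DESeq2 called both. Of 18 ATF4 targets Fam129a alone rose and 0 fell.

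Kif23, a motor of cytokinesis, had 59.0, 94.3 and 107 in watered and 148, 169 and 198 in deprived males, without overlap, a log2 change of 0.90 ± 0.16 (limma adjusted p = 0.0061). It was the only called gene of 25 for mitosis and cytokinesis, whose median was 0.05, and -0.20 without the 4 libraries. Proliferation markers Mki67 and Top2a had -0.28 ± 0.22 and -0.05 ± 0.20 (limma adjusted p = 0.58 and 0.93), and the spindle gene Spag5 0.50 ± 0.12 (limma adjusted p = 0.072), called higher with DESeq2 and without the 4 libraries.

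Further rises covered membrane proteins and enzymes. Cldn14, a claudin that in the thick ascending limb restricts calcium passage between cells, rose by 2.28 ± 0.40 (limma adjusted p = 0.0061), from 12 reads over 6 watered libraries, 2 of them at 0, to 75 over 7 deprived ones. Mcoln3, an endolysosomal cation channel, rose by 0.64 ± 0.10 and Tmem204, a membrane protein of endothelial junctions, by 0.43 ± 0.07 (limma adjusted p = 0.0024 and 0.0022). Tmem204 did not overlap between groups, whereas Mcoln3 was at 338 in deprived male 7, within the watered range of 297 to 348. Mal2, a protein of apical membrane traffic, rose by 0.24 ± 0.05 and Neu1, the lysosomal sialidase, by 0.26 ± 0.06 (limma adjusted p = 0.02 and 0.042). Both had values without overlap, Neu1 going from 8370 to 9427 in watered to 9616 to 11292 in deprived males. Hao2, a peroxisomal hydroxyacid oxidase, rose by 0.47 ± 0.09 and Arrdc3, an arrestin-like adaptor, by 0.47 ± 0.09 (limma adjusted p = 0.015 and 0.016). Hao2 stood at 13177 to 16174 in females, above the 3063 to 5681 of males.

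Regulators that rose included Banp, a nuclear matrix protein, by 0.73 ± 0.13, and Bcl11b, a zinc finger factor best known from T cells, by 0.42 ± 0.09 (limma adjusted p = 0.01 and 0.045). The orphan receptor Gpr85 rose by 0.86 ± 0.17 on 109 and 216 reads, and the ubiquitin ligase Neurl1b of Notch signalling by 0.48 ± 0.10 (limma adjusted p = 0.022 and 0.03). Gpr85 and Bcl11b did not overlap between the groups.

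Of 21 clock genes Nfil3 rose and Per3 and Cry2 fell, at a list median of -0.04, and 0 of the 3 calls passed with males fitted alone (limma adjusted p = 0.22, 0.0928 and 0.149). Per3, a period protein of the clock (chromosome 4, 151003652 to 151044665), had 540, 673 and 737 in watered and 356, 476 and 575 in deprived males, with watered male 2 and deprived male 2 in the zone of overlap. It fell by 0.58 on the log2 scale (SE 0.11, limma adjusted p = 0.012). Cry2, a cryptochrome that represses the clock, changed by -0.40 ± 0.09, and Nfil3, which represses D-box genes, rose by 0.56 ± 0.12 (limma adjusted p = 0.044 and 0.04). The calls of Cry2 and Nfil3 held in 6 and 11 of 24 fits without 1 library, and that of Nfil3 was lost without the 4 libraries (limma adjusted p = 0.0925). Exons of Cry2 overlap those of a gene on the other strand, D930015M05Rik, so that the reads of Cry2 are uncertain. D930015M05Rik had a log2 change of -0.48, in the same direction as Cry2. Without the 4 libraries 0 rose and 2 fell. Nr1d2, a repressor of the clock, had -0.34 ± 0.09, Nr1d1 -0.15 ± 0.14, Dbp, a D-box activator, -0.37 ± 0.14 and Per1, a corticosteroid-responsive period gene, 0.38 ± 0.17 (limma adjusted p = 0.099, 0.63, 0.29 and 0.39).

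A gene of sterol control and a lipid carrier fell. Insig1, which holds back the sterol sensor in the endoplasmic reticulum and is itself a target of the sterol factors (chromosome 5, 28071363 to 28078662), had 1565, 1897 and 2445 in watered and 1308, 1358 and 1600 in deprived males. Only the edges overlapped, and the log2 change was -0.45 ± 0.08 (limma adjusted p = 0.0094). Of 24 genes of cholesterol synthesis and sterol regulation 1 fell and 0 rose, 3 had a change above 0, and the median was -0.16 against 0.00 over all genes. The sterol and lipid factor Srebf1 had -0.37 ± 0.09 and the synthesis enzyme Hsd17b7 -0.32 ± 0.08 (limma adjusted p = 0.072 and 0.083), and DESeq2 called both lower. Mfsd2a, which carries lysophospholipids into cells, had 943, 1403 and 1702 in watered and 466, 694 and 1082 in deprived males, a change of -0.95 ± 0.18 (limma adjusted p = 0.015). Its groups overlapped, and the call was lost without watered male 3 and without the 4 libraries (limma adjusted p = 0.0567 and 0.0611). Of 20 genes of fatty acid and phospholipid handling it alone was called.

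Ovol1, a zinc finger repressor of epithelia, had 293, 327 and 401 in watered and 194, 234 and 264 in deprived males, without overlap, and fell by 0.57 (SE 0.09, limma adjusted p = 0.0012). Its exons overlap those of 2 other genes on the opposite strand, which leaves its reads uncertain. These 2 genes had log2 changes of -0.29 and 0.06. Neat1, the long noncoding RNA that scaffolds paraspeckles, had 28823, 35818 and 44407 in watered and 20380, 25551 and 27075 in deprived males, a change of -0.52 ± 0.10 (limma adjusted p = 0.022) without overlap. Of 10 nuclear long noncoding RNA and paraspeckle genes Neat1 alone was called, or 2 without the 4 libraries and with DESeq2, the neighbouring RNA Malat1 having 0.10 ± 0.11 (limma adjusted p = 0.7). Wdr86, a gene of WD repeats, changed by -0.71 ± 0.14 (limma adjusted p = 0.015), without overlap.

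Dnaja1, a cofactor of the chaperone HSP70, fell by 0.30 (SE 0.06, limma adjusted p = 0.01), from 11210 to 12367 in watered to 7993 to 10263 in deprived males. Its exons overlap those of Smu1 on the opposite strand, which had 0.10. Of 15 heat shock genes Dnaja1 alone was called, at a list median of -0.12. The endoplasmic chaperone Hspa5 had -0.40 ± 0.11, Hsp90ab1 -0.16 ± 0.05 and the tonicity-sensitive Hspa1b 0.19 ± 0.24 (limma adjusted p = 0.13, 0.23 and 0.72).

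Rhbg, an ammonia transporter of the collecting duct, changed by -0.37 ± 0.07 (limma adjusted p = 0.02), from 257 to 363 in watered to 196 to 250 in deprived males, without overlap. It was the only called gene of 17 for ammonia and acid-base transport, at a list median of -0.12. Its relative Rhcg had -0.09 ± 0.06 and the proton pump subunit Atp6v1b1 -0.20 ± 0.06 (limma adjusted p = 0.5 and 0.14), the latter called lower with DESeq2. Markers of intercalated cells, which carry out acid transport, summed to 11347 to 14442 in watered and 9059 to 11462 in deprived males, overlapping, and their part in the Rhbg result was not tested. The sialyltransferases moved apart, St6galnac3 rising by 0.69 ± 0.14 and St6gal1 changing by -0.40 ± 0.09 (limma adjusted p = 0.022 and 0.045), the latter call holding in 5 of 24 fits without 1 library. They were 2 of 14 tested members of that enzyme family.

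**Figure D3:**
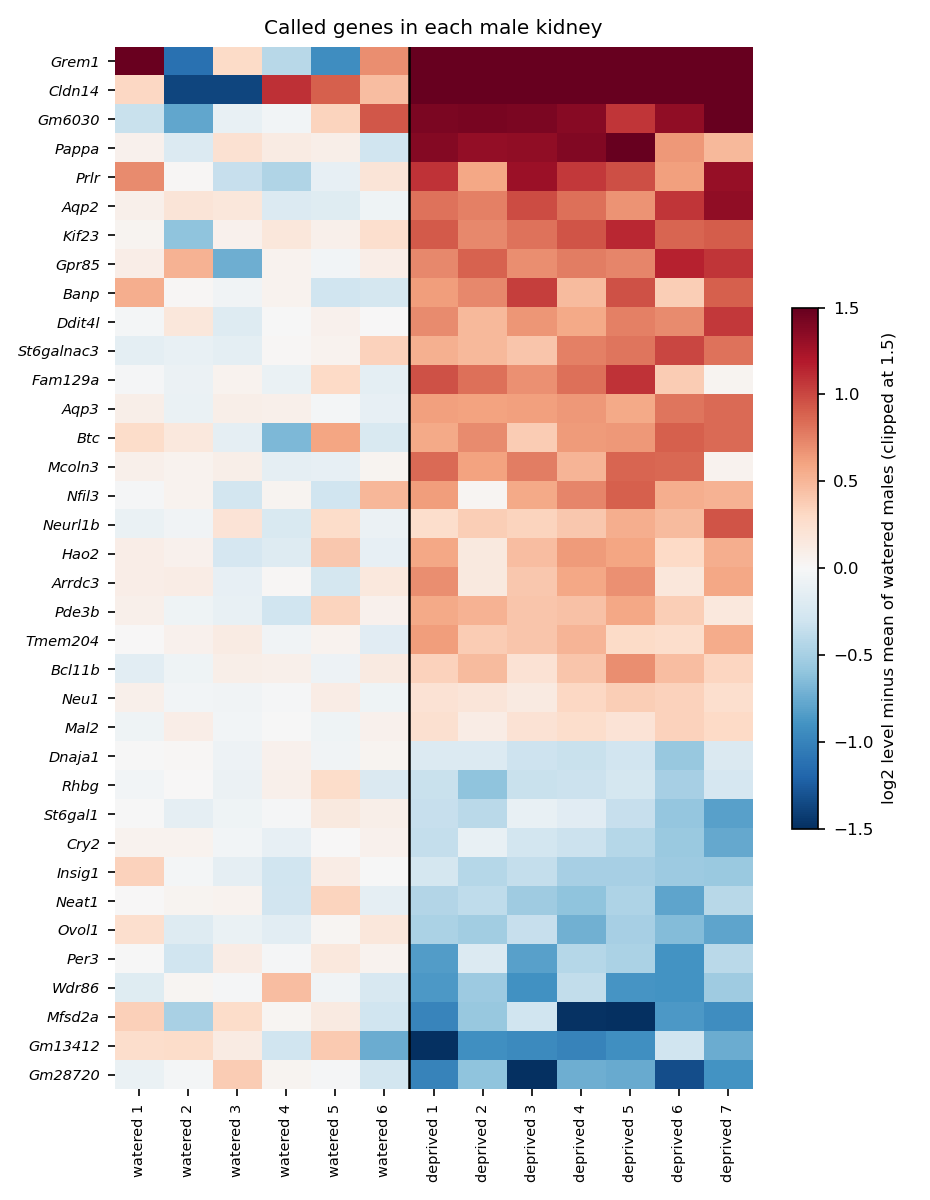
Log2 level of 36 called genes (vertical axis) in each of 13 males (horizontal axis), relative to the mean of the 6 watered males, in colours that are clipped at 1.5. The 7 deprived mice share the direction for most genes, and deprived male 7 lies near the watered level for Mcoln3 and Fam129a.

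The called genes were also counted in each male. Of the 25 genes that rose, each deprived male had between 21 and 25 above all 6 watered males, 21 in deprived male 2 and 25 in deprived male 5. Of the 15 that fell, each had between 11 and 15 below all watered males. A watered male set against the other 5 had 1 to 6 of the 25 above and 0 to 5 of the 15 below. These genes were chosen on the same values, which favours high counts in deprived males, so the counts are a description.

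In 11 of the 24 fits without 1 library a female was left out, which alters the spread but not the male change. Leaving out 1 library at a time, 19 of the 40 calls passed in all 24 fits, among them Aqp2, Aqp3, Grem1, Prlr, Ddit4l, Pappa, Kif23, Ovol1, Insig1 and Per3. Of the others named above, Neu1 passed in 9 and Bcl11b in 7 of the 24. Neat1 passed in 19, St6galnac3 and Neurl1b in 18, Mal2, Rhbg and Gpr85 in 21, Hao2 in 22 and Arrdc3, Wdr86 and Mfsd2a in 23. The highest adjusted p among these fits was 0.121 (limma), for Nfil3 without watered male 3 and for Bcl11b without watered male 1. With males fitted alone 11 of the 40 calls passed, including Aqp2, Aqp3, Grem1, Pappa, Ddit4l, Kif23, Prlr, Ovol1 and Tmem204.

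Several groups tied to water shortage had medians above 0 but few or no calls. Of 14 tonicity and osmolyte genes Aqp2 alone was called, at a list median of 0.22, or 0.33 without the 4 libraries. Slc5a3, the myo-inositol transporter, had 3383 to 4904 in watered and 4726 to 5692 in deprived males, a change of 0.34 ± 0.08 (limma adjusted p = 0.074). The betaine transporter Slc6a12 had 0.47 ± 0.13, the sorbitol-making Akr1b3 0.39 ± 0.30 and Nfat5 itself -0.19 ± 0.11 (limma adjusted p = 0.13, 0.57 and 0.5). Sgk1, a kinase gene that corticosteroids and tonicity induce, went from 2105 to 3042 in watered to 3137 to 6394 in deprived males without overlap, yet at 0.78 ± 0.18 it missed the threshold (limma adjusted p = 0.075). DESeq2 called Slc5a3 and Sgk1 (adjusted p = 0.0166 and 0.00443), which gave 3 of 14 with that tool, and Sgk1 had 0.61 without the 4 libraries (limma adjusted p = 0.19).

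Of 19 corticosteroid response genes Ddit4l alone was called, or 3 with DESeq2 (Ddit4l, Sgk1 and Cdkn1a), and 16 had a change above 0. The list median was 0.35, and 0.14 without the 4 libraries. Fkbp5, Zbtb16 and Tsc22d3, which corticosteroids induce, had -0.32 ± 0.25, -0.15 ± 0.44 and 0.20 ± 0.11 (limma adjusted p = 0.58, 0.89 and 0.46). Of 18 vasopressin and cyclic AMP genes only Pde3b, a phosphodiesterase that degrades cyclic AMP, was called, at 0.44 ± 0.09 (limma adjusted p = 0.039), with 11 of 24 fits without 1 library keeping it. The list median was 0.22, with 13 of the 18 above 0 and changes from -0.90 to 1.08. Without the 4 libraries 2 were called higher and 1 lower, and with males fitted alone 0 were called. The cyclic AMP-responsive Crem had 0.38 ± 0.10, and Rgs2, Rasd1 and Gem, regulators of G proteins and small GTPases, had 0.58 ± 0.15, 0.95 ± 0.26 and 0.83 ± 0.24 (limma adjusted p = 0.097, 0.11, 0.13 and 0.16). DESeq2 on recovered reads, which called 157 genes in males, called all 4 of these as higher. With edgeR on the same reads 34 genes were called, Crem and Rgs2 not among them.

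Among the other lists, 0 genes were called of 18 immediate early, 10 renin-angiotensin, 14 distal convoluted tubule and WNK, 15 tubular injury and 14 hypoxia genes. Their medians were 0.21, -0.04, -0.15, -0.05 and -0.01, and that of the immediate early genes was 0.05 without the 4 libraries. The renin gene Ren1 had 0.21 ± 0.16, the thiazide-sensitive cotransporter Slc12a3 -0.26 ± 0.16, and the injury markers Havcr1 and Lcn2 -0.22 ± 0.28 and 0.32 ± 0.29 (limma adjusted p = 0.58, 0.5, 0.73 and 0.63).

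The genes whose levels followed Aqp2 most closely over the 13 males were Aqp3, Ppp1r2, Ddit4l, Slc45a3 and Bod1, with Pearson r of 0.95, 0.936, 0.925, 0.921 and 0.918. The points share the group difference, and with the group means removed r was 0.578, 0.702, 0.472, 0.652 and 0.851. Ppp1r2, an inhibitor of protein phosphatase 1, and Slc45a3, a sugar transporter, had log2 changes of 0.20 ± 0.05 and 0.30 ± 0.07 without overlap between groups (limma adjusted p = 0.089 and 0.054).

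**Figure D4:**
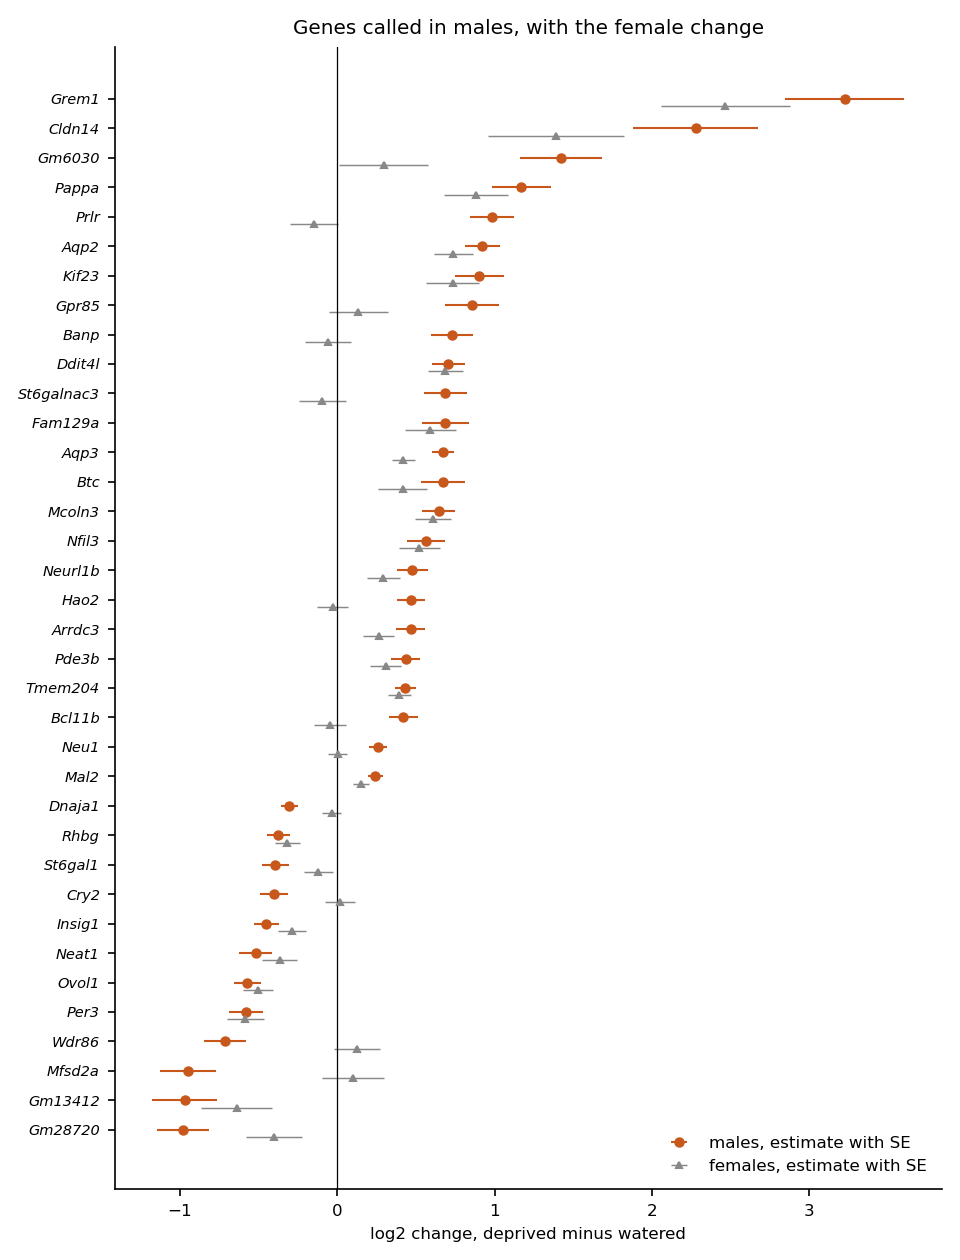
Log2 change with SE (horizontal axis) of 36 genes called in males, for males (orange circles) and females (grey triangles). Most genes lie on the same side in both sexes, while genes such as Prlr, Mfsd2a, Banp, Wdr86, Hao2 and St6galnac3 lie near or beyond 0 in females.

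In females, 32 of the 40 genes had the same sign and 11 were also called, against 139 called in females in all (0.79%). The share of all tested genes with the same sign in both sexes was not counted, so the 32 has no background here. Among the 32 were Aqp2 and Aqp3 (0.74 and 0.42), Ddit4l (0.69), Grem1 (2.47) and Per3 (-0.58). Mfsd2a had 648 to 1049 in watered and 744 to 1126 in deprived females, a change of 0.10, and Wdr86 had 0.13, Banp -0.06 and Hao2 -0.03. St6galnac3, which rose in males, had 49.0 to 75.4 in watered and 44.8 to 78.2 in deprived females. The test of the difference between the sexes called 0 genes in limma, with 1248 genes (7.09%) at an unadjusted p below 0.05, and the smallest adjusted p among the 40 was the 0.0774 of Prlr. With edgeR on recovered reads 0 were called as well, 1412 having an unadjusted p below 0.05, and with DESeq2 46, of 1504 at an unadjusted p below 0.05, Prlr, Mfsd2a, Wdr86 and Banp among them.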

How the data were processed

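RNA-seq of 24 mouse kidneys was used, with groups taken from the sample titles. The authors deposited 1 table of normalized counts, a signal on a linear scale, for 19399 genes. Trim Galore, featureCounts, Subread, DESeq2 and mm10 are named in the submitters' processing notes. Beyond the name Subread, the sources used here give no aligner, and they give no annotation or strand setting. The smallest gene total was 100 reads, so genes of few reads are not in the table. Of the deposited values 100.0% were whole multiples of 1 step per library within 0.01 read, which gave back reads of 14411843 to 29398960 per library.

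The test was limma 3.58.1 (R 4.3.3) on log2(value + 1), with a trended and robust prior, in 1 fit of all 24 libraries with a coefficient per group. A gene was tested if 5 or more libraries reached a value of 10, which kept 17592 and left out 1807. Calls were made below a Benjamini-Hochberg adjusted p of 0.05. Fold changes of low genes are understated on this scale. P-values set a change against the spread between mice within groups, pooled over all 4 groups, females included, and moderated by the trended prior. Alternatives used edgeR 4.0.16 and DESeq2 1.42.0 on recovered reads. The fit was tested on simulated data.

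The genes and lists were chosen with earlier results of these data known. Named are the called genes with a gene name, the list members of smallest p, a fixed set of genes of water balance, and the 5 genes most like Aqp2. Id1, Id4, Bmp7, Igfbp3, Cish, Socs2, Mki67, Top2a, Aqp4, Scnn1b, Malat1, Hspa1b, Fkbp5, Zbtb16, Tsc22d3, Nr1d1, Dbp, Per1, Havcr1, Lcn2 and other list members outside this rule were chosen after their values were seen. Some called genes and list members are counted but not reported here. Names and coordinates come from the table and GENCODE M21 (GRCm38), which held 19300 of the identifiers. The title of deprived female 5 and its treatment label disagree, and it was kept as deprived. The clock time given for removing water does not fully match the hours stated.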

Additional observations from a re-analysis of the deposited data

Results flagged for a closer look

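Of 84 sets of values, those of 42 genes in each male group, 9 had a mouse far from the others of its group, where chance gives about 1 in 20. Of the 9, 3 were deprived male 7, the mouse with the highest share of ENSMUSG00000119584: Ddit4l at 517.6 against 349.4 to 419.5 in the other deprived males, Neurl1b at 1011 against 631.2 to 768.6, and the gene model Gm6030 at 25.19 against 13.48 to 17.52. Deprived male 6 had Dnaja1 at 7993 against 9374 to 10260.

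Among watered males, mouse 6 had St6galnac3 at 44.21 against 31.16 to 35.9 and Nfil3 at 448.2 against 256.4 to 328.0. Watered male 2 had Kif23 at 59.0 against 92.37 to 107.5, watered male 1 had Banp at 353.9 against 197.4 to 252.5, and watered male 4 had Wdr86 at 108.1 against 65.88 to 80.0.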

How the results depend on the processing

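The count of 40 genes called in males was 157 with DESeq2 (all 40 shared) and 34 with edgeR, both on recovered reads. Quality weights per library gave 133, and leaving out the 4 libraries over 1% of ENSMUSG00000119584 gave 142 (36 shared). The count was 11 with males fitted alone, and 89 with males alone without deprived males 6 and 7, a setting added after seeing the data. Of 14 alternatives other than leaving out 1 library, DESeq2 alone called Crem, Rgs2, Cdkn1a, Hsd17b7 and Atp6v1b1. Leaving out 1 library in turn gave 22 to 65 genes, the counts outside 1.5 times being 22 without watered male 3, 25 without watered male 4 and 65 without deprived male 3. Of the 40, 19 passed in all 24 such fits, and 0 of the 40 changed sign. The count of 0 genes whose response differed between the sexes was 46 with DESeq2, 9 with weights, 9 without the 4 libraries and 1 (Slc22a6) with the balance of thick limb and proximal tubule markers as a covariate. It was 0 to 3 without 1 library, with 2 without watered male 1, 1 without deprived male 6 and 3 without deprived male 7. The cause of these shifts was not tested. Replicate numbers did not pair the males (r between mice of the same number from -0.075 to 0.14). With the replicate block 48 genes were called in males and 2, Nr1d1 and Mylip, between the sexes. Low counts limit Grem1, Cldn14, Gpr85 and Avpr2.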

Other observations

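DESeq2 and the fit without the 4 libraries shared 72 called genes, 36 of which were not called in all 24 libraries with limma, 26 higher and 10 lower. Among them were receptors and signalling genes. Ednrb, the endothelin B receptor of endothelium and collecting duct, went from 387 ± 60.8 (SD, n = 6) to 490 ± 40.8 (SD, n = 7), with 0.35 ± 0.09 in all libraries (limma adjusted p = 0.109). Htr1b, a serotonin receptor, went from 64.1 ± 7.60 to 100.3 ± 24.3, and Rgs4, which shortens G protein signals, from 42.4 ± 3.12 to 63.3 ± 10.3 (limma adjusted p = 0.0759 for both in all libraries). Kcnt1, a sodium-activated potassium channel, went from 456 ± 49.1 to 278 ± 94.1, a log2 change of -0.80 in all libraries and -0.46 without the 4.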
